A study of Mus musculus with 17 samples.

Results

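Hedgehog signalling was examined in mouse bile duct through the 9 genes whose names in the deposited table are Shh, Ihh, Dhh, Ptch1, Smo, Hhip, Gli1, Gli2 and Gli3, out of 43346 genes in the table. The genes were chosen by name, and all 9 were found once each. The RNA came from work on extrahepatic cholangiocarcinoma, which arises in the large ducts beyond the liver. All 17 samples carry the same label, bile duct, and the labels give no genotype, strain, treatment, time, age or sex, nor whether tumour or normal duct was taken. No conditions could therefore be compared, and whether each sample is a separate animal is not stated. The spread between samples may thus be partly technical.

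Hedgehog ligands are secreted, lipid-modified proteins that bind the receptor Patched1 (Ptch1). Without ligand, Patched1 holds the membrane protein Smoothened (Smo) inactive; once ligand binds, Smoothened acts through the primary cilium on the GLI transcription factors, which switch target genes on or off. Ptch1, Gli1 and Hhip are themselves well-known targets of the pathway, so it feeds back on itself. In endoderm-derived organs the ligands typically come from epithelium and the receiving cells lie in the surrounding mesenchyme.

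Library totals ran from 16400556 to 24152314 read counts, with a median of 17886041. Each count column has a code followed by a library number, as in R62848_1. There are 6 codes, of which 5 cover 3 libraries and R63494 covers 2, and the sources used here do not explain them. No column name matches a sample title, so libraries are called by their columns. Duct epithelial markers were present in every library, with Krt19 between 987 and 1665 CPM (read counts scaled by library size) and a summed level of 6 cholangiocyte genes between 3448 and 5509 CPM. Markers of pancreatic acinar cells, the enzyme-making cells of the pancreas, were high in code R62850, where 5 genes summed to 3468, 14075 and 80780 CPM, against at most 22.0 CPM in the other 14 libraries. A list of 10 fibroblast genes summed to 10451 to 12726 CPM in the 6 libraries of codes R62848 and R63500 and to 3126 to 6997 CPM in the other 11. The summed level of 5 endothelial genes was 243 to 362 CPM in those 6 libraries, against 172 to 223 CPM. Of the 5, Cdh5, Kdr and Pecam1 had all 6 above the other 11, whereas Tek (8.59 to 13.4 against 10.7 to 15.5 CPM) and Vwf (41.6 to 87.7 against 58.1 to 95.03 CPM) overlapped. Of all 19412 tested genes, 3.90% had all 6 above the other 11 and 2.19% had all 6 below. These 2 codes had stood apart in an earlier look at the same data and do not form a labelled group, and no test was run of these libraries against the rest.

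The 3 ligand genes are related in sequence, and one of them was counted far more than the other two. Reads that fit more than one of them could blur that difference, so their coding sequences were compared in the GENCODE M21 transcripts. Ihh and Dhh share 65.9% of 1155 aligned coding bases, and Shh and Ihh share 68.9% of 1206. The longest stretch that Ihh and Dhh have in common is 16 bases and that of Ihh and Shh is 17 bases. The Ihh and Dhh stretch is shown with 20 bases on each side, because it covers the start of the mature signalling domain, which opens with cysteine, glycine and proline. Capitals mark the identical bases. The windows run from coding base 60 to 115 in Ihh and from 45 to 100 in Dhh.
Ihh: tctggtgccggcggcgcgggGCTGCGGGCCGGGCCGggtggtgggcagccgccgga
Dhh: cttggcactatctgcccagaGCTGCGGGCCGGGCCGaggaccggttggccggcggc
Among the GLI genes the longest shared stretch was 25 bases, between Gli2 and Gli3. The read length was not stated.

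Promoter windows, the 250 bases before the RefSeq start on GRCm38.p6 (the mm10 assembly), were present for 7 of the 9 genes, all but Shh and Gli1. Shown are Ihh, the ligand with the highest level, and Gli2 and Hhip, which were highest and lowest, respectively, in code R62848. Capitals mark 2 motifs on either strand, the GLI core ACCACCC and, not overlapping it, the GC box GGGCGG. The GLI core is the inner part of the 9-base GLI consensus GACCACCCA. The windows lie on the minus strand, at chr1:74951673-74951922 for Ihh, chr1:119053620-119053869 for Gli2 and chr8:80058009-80058258 for Hhip.
Ihh: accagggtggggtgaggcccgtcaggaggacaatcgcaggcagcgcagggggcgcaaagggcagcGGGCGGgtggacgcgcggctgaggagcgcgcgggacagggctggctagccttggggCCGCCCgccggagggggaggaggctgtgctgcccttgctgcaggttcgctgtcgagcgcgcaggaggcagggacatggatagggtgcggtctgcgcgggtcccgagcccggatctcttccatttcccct
Gli2: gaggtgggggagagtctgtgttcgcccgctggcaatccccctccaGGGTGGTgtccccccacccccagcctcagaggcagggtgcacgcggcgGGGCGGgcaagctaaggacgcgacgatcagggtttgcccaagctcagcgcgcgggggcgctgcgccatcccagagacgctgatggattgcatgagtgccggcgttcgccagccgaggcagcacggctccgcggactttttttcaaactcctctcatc
Hhip: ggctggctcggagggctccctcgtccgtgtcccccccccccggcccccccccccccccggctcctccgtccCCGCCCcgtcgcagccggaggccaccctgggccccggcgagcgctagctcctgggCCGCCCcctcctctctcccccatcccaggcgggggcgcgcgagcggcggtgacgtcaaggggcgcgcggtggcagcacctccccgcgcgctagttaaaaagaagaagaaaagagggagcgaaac
The GLI core was found in 1 of the 7 windows, that of Gli2, where it starts at position -205 from the transcription start, on the opposite strand. Of all 32851 RefSeq windows of the same length, 3.92% held this core. The full consensus was in none of the 7 and in 0.225% of all windows. A GC box was in 6 of the 7 windows, all but that of Smo, against 32.7% of all windows, and the GC content of the 3 windows shown was 72%, 67.2% and 76%, against a median of 52.4%. These are matches of letters within short windows and show no binding.

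Levels of different genes were compared as RPKM, CPM divided by gene length in kilobases. Smo stood highest, with a median of 17.5 RPKM, followed by Ptch1 (5.13 RPKM), Ihh (4.41 RPKM), Gli1 (3.73 RPKM), Gli2 (1.15 RPKM), Gli3 (0.381 RPKM), Dhh (0.280 RPKM), Hhip (0.157 RPKM) and Shh (0 RPKM). Smo was above Ptch1 in all 17 libraries, Gli1 above Gli2 in all 17, and Gli2 above Gli3 in all 17. The middle of the order was less settled: Ptch1 was above Ihh in 12 of 17 libraries, and Ihh above Gli1 in 12 of 17. Dhh was above Hhip in 10 of 17 libraries, so these neighbours did not differ beyond their spread. The scale rests on the table's gene lengths, which are shorter than the exonic bases of the GENCODE M21 models for Ptch1 (8745 against 14185 bases), Smo (3779 against 5621), Gli1 (3665 against 4995), Dhh (2363 against 4399) and Hhip (4896 against 9076), so the order of close neighbours depends on the gene model.

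**Figure D1:**
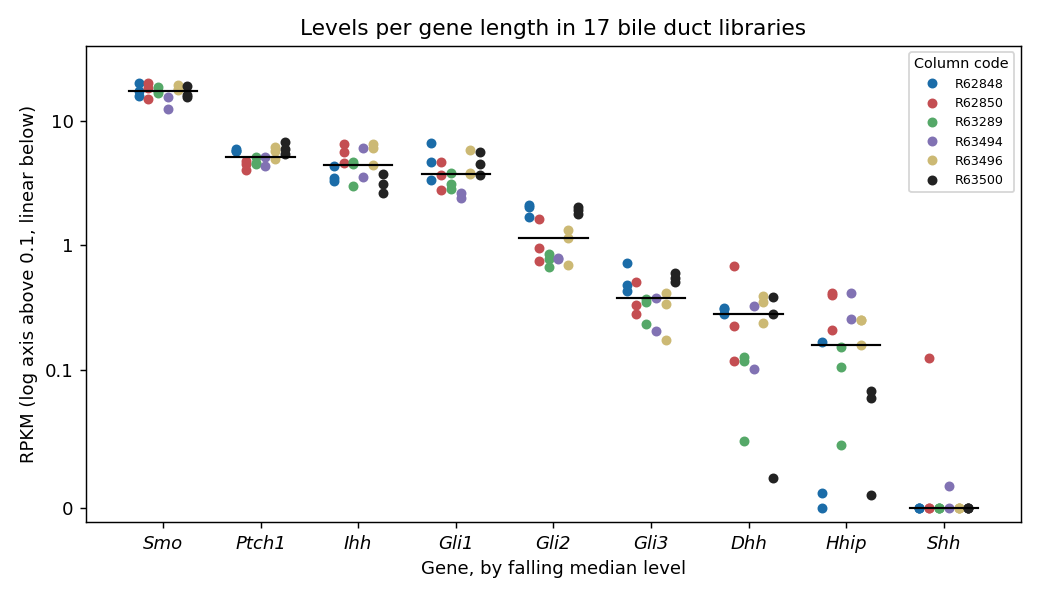
Level of each Hedgehog gene in RPKM (log axis above 0.1, linear below) in 17 bile duct libraries, coloured by column code; black lines are medians over the 17. Smo lies above all other genes, and Shh is at 0 in 15 libraries.

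Ihh, which encodes Indian hedgehog, was the only ligand gene with more than 24 counts in any library. It lies on the minus strand of chromosome 1, from 74945315 to 74951672 (mm10, ENSMUSG00000006538), and overlaps no other annotated gene. Its counts ran from 145 to 430 with a median of 220, which is 8.07 CPM in R63500_2, a median of 13.4 CPM and 20.1 CPM in R62850_2. The 3 R63500 libraries stood at 8.07 to 11.4 CPM and the 3 R62848 libraries at 10.03 to 13.1 CPM, whereas R62850 reached 13.96 to 20.1 CPM and R63496 13.4 to 19.8 CPM. R63289 (9.14 to 14.2 CPM) and R63494 (10.9 and 18.5 CPM) overlapped both. Ihh differed between codes (edgeR quasi-likelihood F test over the 6 codes, adjusted p = 0.0171), with the mean log2 CPM of R63496 above that of R63500 by 0.82 (SE 0.25). All 6 libraries of R62848 and R63500, which had the highest fibroblast gene levels, were at or below 13.1 CPM. In bulk tissue, fewer cells of a type and less RNA per cell cannot be told apart. The call was lost when code R63500 was left out (adjusted p = 0.0883, edgeR).

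Shh, which encodes Sonic hedgehog (chromosome 5, minus strand, from 28456815 to 28467101, ENSMUSG00000002633), had 6 counts in all. Of these, 5 were in R62850_3, the library with the highest acinar gene level, and 1 was in R63494_2, and the other 15 libraries had none. The part of acinar tissue in these counts was not tested. A count of 0 allows up to 3 counts, for counting error only. Over all 17 libraries, 3 counts correspond to 0.0479 to 0.0752 RPKM. The ends of this range belong to R63494_2 and R62850_3, so the bounds for the 15 libraries at 0 lie between them. Shh did not pass the filter on low counts and was not tested. Its exons overlap 2 transcripts of the opposite strand in GENCODE M21, and because the strand setting of the counting is not given, these few counts cannot be assigned to a strand.

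Dhh, which encodes Desert hedgehog, the ligand known from Schwann cells, endothelium and the testis (chromosome 15, minus strand, from 98893031 to 98898540, ENSMUSG00000023000), was scarce, with 1 to 24 counts and a median of 11. It stood at 0.0518 CPM in R63500_3, a median of 0.662 CPM and 1.62 CPM in R62850_3. The 3 R63500 libraries alone ran from 0.0518 to 0.912 CPM, and the SD of log2 CPM was 0.86 within codes and 0.88 over all libraries. No difference between codes passed the test (adjusted p = 0.495, edgeR). Dhh shares exon bases with Rhebl1 on its own strand and with an antisense transcript in GENCODE M21. Of 6 nerve and Schwann cell genes, Sox10 and Cdh19 had a median of 0 counts, and S100b, also known from other cells, had a median of 89.9 CPM.

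Smo, the signal-transducing membrane protein (chromosome 6, plus strand, from 29735694 to 29761365, ENSMUSG00000001761), was the most even of the 9 genes. It had 784 to 1660 counts, and its level ran from 46.9 CPM in R63494_1 over a median of 66.3 CPM to 75.7 CPM in R62848_1, with an SD of 0.18 on the log2 scale. The libraries of the other codes lay between 56.2 and 75.7 CPM. Of the 2 R63494 libraries, R63494_2 (59.3 CPM) was within that range and only R63494_1 (46.9 CPM) was below it. The largest difference between code means, R63496 above R63494, was 0.39 on the log2 scale (SE 0.14), and Smo did not pass the test over codes (adjusted p = 0.198, edgeR).

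Ptch1, which encodes the ligand receptor and is induced by the pathway it restrains (chromosome 13, minus strand, from 63508328 to 63573598, ENSMUSG00000021466), had 522 to 1227 counts. Its level was 35.2 CPM in R62850_3, 44.9 CPM at the median and 58.9 CPM in R63500_1. The R63500 libraries stood at 47.1 to 58.9 CPM and the R62848 libraries at 49.9 to 51.7 CPM, all above the R62850 libraries (35.2 to 41.4 CPM), the R63289 libraries (39.8 to 44.9 CPM) and the R63494 libraries (38.3 and 44.7 CPM). The R63496 libraries, at 43.1 to 53.8 CPM, overlapped the upper ones. Ptch1 differed between codes (adjusted p = 0.00816, edgeR), but the size was modest, 0.44 on the log2 scale between the means of R63500 and R62850 (SE 0.10). Without code R62850 the adjusted p was 0.0522.

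Hhip, which encodes a membrane protein that binds and sequesters the ligands (chromosome 8, minus strand, from 79966115 to 80058006, ENSMUSG00000064325), was scarce, and scarcest in R62848 and R63500. It had 18, 1 and 0 counts in the 3 R62848 libraries and 1, 7 and 8 in the R63500 libraries. In R62850 it had 35, 19 and 30 counts, and in R63494 21 and 47. In CPM this was 0 to 0.821 in R62848 and 0.0480 to 0.414 in R63500, against 1.02 to 2.02 in R62850, 1.26 and 2.02 in R63494 and 0.771 to 1.23 in R63496. R63289, at 0.223 to 0.747 CPM, lay within the range of R62848 and overlapped R63500. Hhip differed between codes (adjusted p = 0.0427, edgeR), and R63494 was above R62848 by 2.76 on the log2 scale with a prior count of 2 (SE 0.84). At counts this low the call was fragile: it was lost when any one of R62848_2, R62850_1, R62850_3, R63289_2, R63289_3, R63494_2, R63496_1, R63496_2 and the 3 R63500 libraries was left out, with adjusted p between 0.0531 and 0.0808. It was also lost without each of the codes R62850, R63289, R63494 and R63500 (0.0523 to 0.0939).

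Gli1, an activator and the gene most often read as a sign of pathway activity (chromosome 10, minus strand, from 127329889 to 127341589, ENSMUSG00000025407), had 148 to 433 counts. It stood at 8.86 CPM in R63494_1, 13.7 CPM at the median and 24.6 CPM in R62848_3. The R63494 libraries were the lowest of all, at 8.86 and 9.64 CPM, and the ranges of R62848 (12.4 to 24.6 CPM), R63500 (13.5 to 20.8 CPM) and R63496 (13.7 to 21.4 CPM) overlapped widely. The difference between R62848 and R63494 was 0.90 on the log2 scale (SE 0.32), and the test over codes narrowly missed the threshold of 0.05 (adjusted p = 0.0537, edgeR). It passed with DESeq2 (adjusted p = 0.0173), without the filter on low counts (0.0181), and when R62848_2, R62850_2, R62850_3, R63500_2 or any of the 3 R63496 libraries was left out (0.0153 to 0.0491). It also passed without the codes R62848, R62850 and R63496 (0.0315 to 0.0421). Without code R63494 the adjusted p was 0.295. In GENCODE M21 Gli1 shares 62 exon bases with Arhgap9 and 265 with another transcript, both on the opposite strand, out of 4995.

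Gli2, the main activator at the head of the response (chromosome 1, minus strand, from 118834132 to 119053619, ENSMUSG00000048402), differed most clearly. It had 83 to 260 counts, from 4.63 CPM in R63289_3 over a median of 7.88 CPM to 14.6 CPM in R62848_3. The R62848 libraries stood at 11.6 to 14.6 CPM and the R63500 libraries at 12.4 to 14.02 CPM. No library of the other 4 codes reached 11.6 CPM, the nearest being R62850_2 at 11.3 CPM, and the R63289 and R63494 libraries were all at or below 5.86 CPM. The difference between codes passed the test (adjusted p = 0.000265, edgeR), with R62848 above R63289 by 1.32 on the log2 scale (SE 0.27). It held when each library or each code was left out (adjusted p at most 0.0035). Gli2 was the only one of the 8 tested genes with all 6 libraries of R62848 and R63500 above the other 11, an arrangement that 3.90% of all 19412 tested genes showed. None of the 8 had all 6 below the other 11, against 2.19% of all tested genes. The fibroblast genes were higher in the same 6 libraries, 7 of 10 of them without overlap, and their part in the level of Gli2 was not tested.

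Gli3, which acts mostly as a repressor in its processed form (chromosome 13, plus strand, from 15463235 to 15730026, ENSMUSG00000021318), had 30 to 129 counts. It stood at 1.67 CPM in R63496_1, 3.66 CPM at the median and 6.89 CPM in R62848_2. The R63500 libraries (4.86 to 5.79 CPM) and R62848 libraries (4.10 to 6.89 CPM) were high as for Gli2, but R62850_3 (4.86 CPM) overlapped them. The difference between R63500 and R63494 was 0.94 (SE 0.40) and did not pass the test (adjusted p = 0.0832, edgeR). It crossed the threshold with DESeq2 (adjusted p = 0.0499), without the filter (0.0490) and without R63496_3 (0.0490).

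**Figure D2:**
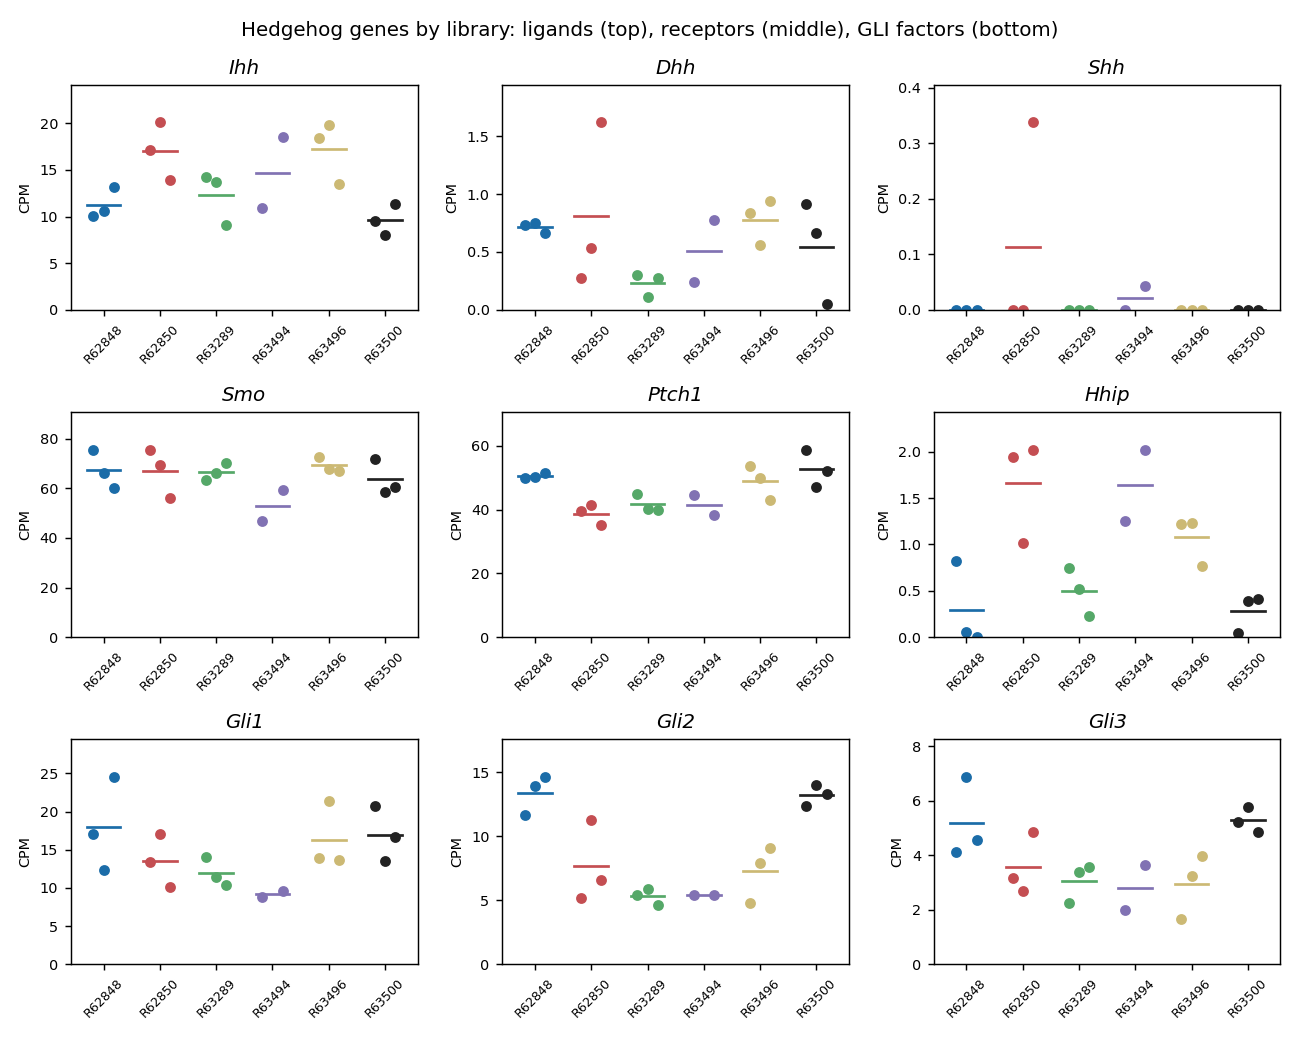
CPM of each gene (linear axes from 0) in each library, by column code; points are libraries and lines the mean of a code. Gli2 stands at 11.6 to 14.6 CPM in R62848 and R63500, where Hhip is at 0 to 0.821 CPM, and Smo is nearly level. Hhip in R63289 (0.223 to 0.747 CPM) lies within the same range, and Gli2 there is at 4.63 to 5.86 CPM.

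In all, 4 of the 8 tested genes differed between codes: Ihh, Ptch1, Hhip and Gli2. This is close to the background, since 42.2% of all 19412 tested genes did, so the count itself says nothing particular about the pathway. The count was 6 with DESeq2, which added Gli1 and Gli3, and 2 without code R63500, where Gli2 and Ptch1 remained. The median difference between the highest and lowest code mean was 0.92 on the log2 scale over the 8 genes and 0.71 over all tested genes. What the codes stand for, and so what the differences between them reflect, cannot be told apart from any other property that libraries of 1 code share.

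The ratios of Ihh to Gli2 and to Gli1 follow from the levels given above and are not separate results. The ratio of Ihh to Gli2 in RPKM was 1.72 to 2.02 in the R62848 libraries and 1.30 to 1.94 in the R63500 libraries, and 3.33 to 8.67 in the other 11. The ratio of Ihh to Gli1 was 0.642 to 1.03 and 0.553 to 0.822 in the same 2 codes, against 1.05 to 2.31 in the others. These ratios were formed after the values of the single genes had been seen and were not tested. How many gene pairs separate the same 6 libraries from the other 11 was not counted. The ratio of Gli1 to Ptch1, a pair of targets of the pathway, did not separate the codes in this way: it was 0.590 to 1.13 in R62848, 0.685 to 0.842 in R63500 and 0.473 to 1.02 elsewhere. The ratio of Gli1 to Gli2 also overlapped, at 1.67 to 3.15 in R62848, 1.81 to 3.15 in R63500 and 2.82 to 5.43 elsewhere. Those of Gli2 to Gli3 and of Smo to Ptch1 overlapped as well.

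**Figure D3:**
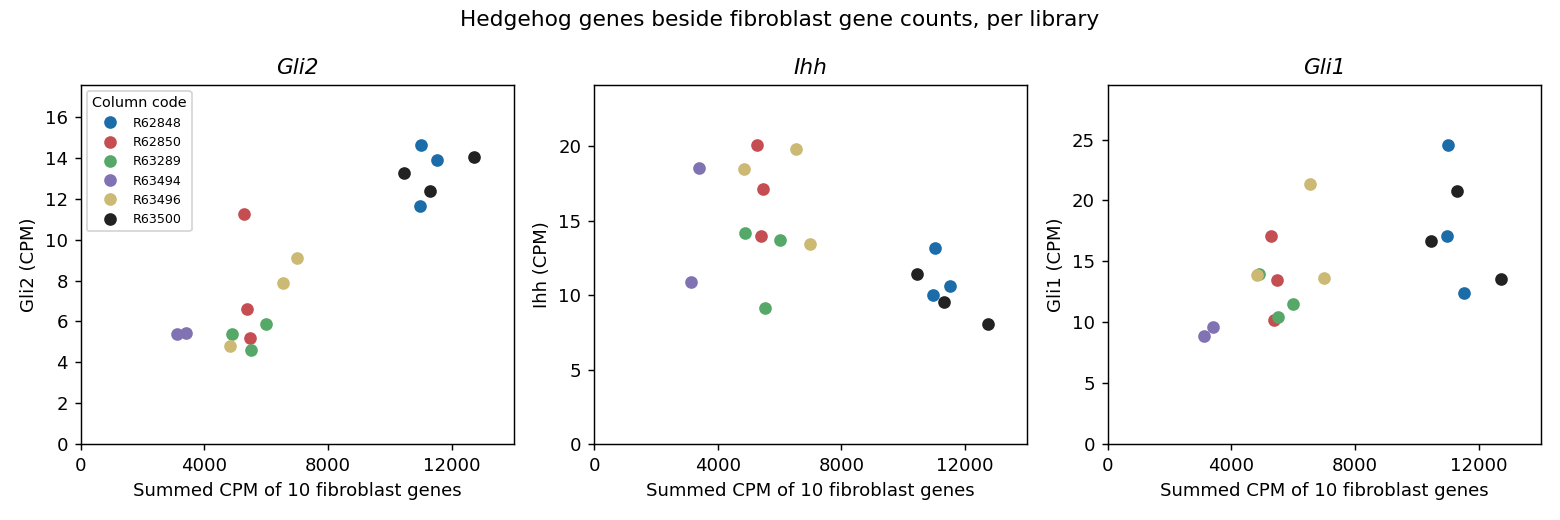
CPM of Gli2, Ihh and Gli1 against the summed CPM of 10 fibroblast genes, 1 point per library, coloured by column code. The 6 libraries of R62848 and R63500 lie at 10451 to 12726 summed CPM, with Gli2 at 11.6 to 14.6 CPM and Ihh at 8.07 to 13.1 CPM.

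Whether the genes moved together from library to library inside a code was examined by subtracting each code's mean and correlating the remainder with Gli1. This was done for all 19411 other tested genes over the 17 libraries, with exact permutation of libraries within codes. No gene passed after adjustment, for Pearson's r or Spearman's rho, and 4.59% had an unadjusted p below 0.05 for r. For Ihh, Pearson's r was 0.62 (exact p = 0.00817, adjusted 0.9997), Spearman's rho was 0.69 (exact p = 0.00502, adjusted 0.857), and it ranked 262 of 19411 by r. For Ptch1, r was 0.54 (exact p = 0.0458, adjusted 0.9997) and rho 0.50 (exact p = 0.0766, adjusted 0.924). Without R62848_3 and R62848_2, the 2 libraries whose Gli1 deviation from the code mean was farthest from the median deviation, r was 0.64 for Ihh and 0.62 for Ptch1. Gli2 (r = 0.30, exact p = 0.381), Smo (r = 0.18, exact p = 0.568), Dhh (r = -0.18, exact p = 0.521), Hhip (r = -0.21, exact p = 0.656) and Gli3 (r = -0.37, exact p = 0.236) had weaker values, all with an adjusted p of 0.9997. Over the 17 libraries without subtracting code means, r with Gli1 was 0.68 for Ptch1, 0.63 for Gli2, 0.43 for Smo, 0.20 for Gli3, 0.10 for Dhh, 0.09 for Ihh and -0.45 for Hhip, given as a description because libraries share codes. The permutations allow no p below 6.43e-05. A gene could thus pass adjustment over 19411 genes only if many others were as extreme. The adjusted values therefore cannot decide whether Ihh or Ptch1 moved with Gli1, and no conclusion is drawn from them.

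**Figure D4:**
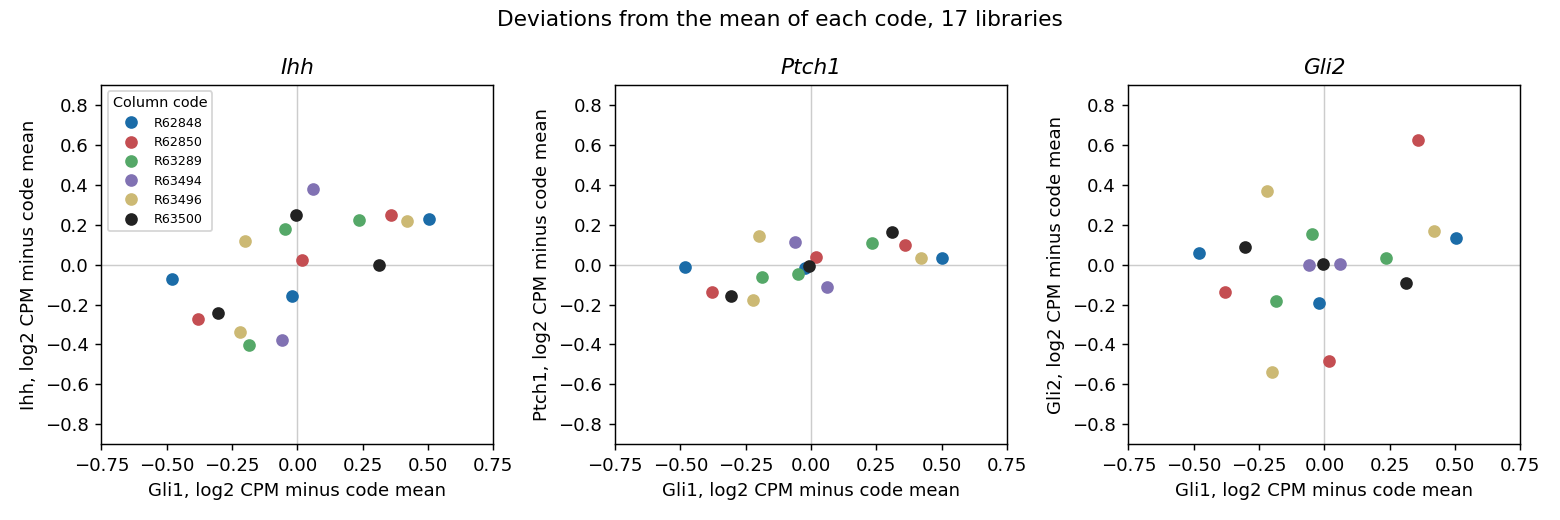
Deviation of Ihh, Ptch1 and Gli2 from the mean of their code against that of Gli1, both in log2 CPM, 1 point per library. Ihh (r = 0.62) and Ptch1 (r = 0.54) lean upward with Gli1, and Gli2 is scattered (r = 0.30).

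By a likeness defined as the smaller of the r over the 17 libraries and the r within codes, the 5 genes most like Gli1 were Chaf1a (0.80), Pde3a (0.76), Nova2 (0.75), Aoc1 (0.72) and Gm9824 (0.71). Those most like Ihh were Pmfbp1 (0.83), RP23-127L4.1 (0.80), Acad8 (0.76), Bag4 (0.76) and Acot8 (0.75). The libraries share codes, so the 17 points are not independent, and these are the highest of 19411 values. No Hedgehog gene was among them.

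The proteins that release the ligand or help receptors hold it were next. Of 15 such genes 13 were tested, and 5 differed between codes (38.5%, against the background of 42.2%), among them Cdon, Boc, Gpc3 and Disp2. The highest levels were those of Gpc3, a glypican that competes for ligand (median 9.39 RPKM), Gas1, a co-receptor (6.98 RPKM), and Cdon, another co-receptor (5.79 RPKM). Cdon ran from 29.6 to 70.0 CPM, with the R62848 libraries highest, and was higher in R62848 than in R63494 by 1.12 on the log2 scale (adjusted p = 6.06e-06, edgeR). Its partner Boc ran from 9.38 to 25.0 CPM (adjusted p = 0.000333, edgeR). Gas1, at 16.4 to 27.4 CPM, did not pass (adjusted p = 0.186, edgeR).

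Disp2, of the Dispatched family, lay between 4.70 and 6.86 CPM in the 6 R62848 and R63500 libraries, with no overlap with the other 11 (0.698 to 3.24 CPM), and differed between codes (adjusted p = 6.40e-05, edgeR). Of the 13 tested genes of this list, 2 had all 6 libraries above the other 11 and 0 had all 6 below, against 3.90% and 2.19% of all tested genes. Scube2, a secreted helper of ligand release, had a median of 7 counts or 0.391 CPM and did not pass (adjusted p = 0.315, edgeR). Disp1, the Dispatched protein that releases the ligands, had a median of 12.9 CPM (adjusted p = 0.0565, edgeR). The choice of Disp2, Boc and Disp1 followed sight of their values.

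The 22 genes of signal transduction and the primary cilium varied less. Of these, 9 differed between codes (40.9%, against 42.2% of all tested genes), and the median difference between code means was 0.36 on the log2 scale, against 0.71 for all tested genes. The most abundant were Spop, an adaptor for GLI degradation (median 39.6 RPKM), Adrbk1, the kinase now called Grk2 (38.4 RPKM), and Csnk1a1, casein kinase 1 alpha (31.6 RPKM). Csnk1a1 lay between 304 and 361 CPM. The widest spread was that of Gpr161, a ciliary receptor that restrains the pathway, at 1.39 to 5.98 CPM (adjusted p = 0.0489, edgeR), and of Efcab7, which helps anchor the Evc complex, at 1.34 to 4.92 CPM (adjusted p = 0.138). Sufu, the cytoplasmic inhibitor of GLI proteins, lay between 27.5 and 36.4 CPM and did not pass (adjusted p = 0.192, edgeR). Evc, a cilium base protein that promotes Smoothened signalling, was an exception, with 14.02 to 46.1 CPM and its lowest levels in R63500 (adjusted p = 0.000146, edgeR). Sufu and Evc were chosen after their values had been seen.

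Of 17 genes described elsewhere as Hedgehog targets, 16 were tested and 14 differed between codes (87.5%, against 42.2%), with 12 of the 16 highest in R62848 or R63500 (75%, against 37.2% of all tested genes). Most of these genes answer to other pathways as well. The list was chosen with earlier results of these data known, and R62848 and R63500 had already stood apart in them. The excess over all tested genes is therefore a description and not an independent test of the pathway. Ccnd1, cyclin D1, was the most abundant (median 59.3 RPKM), followed by Sfrp1, a secreted Wnt inhibitor (14.8 RPKM), and Hsd11b1, a steroid dehydrogenase (8.47 RPKM). Sfrp1 was also among the most variable, from 18.2 CPM in R63494_2 to 182 CPM in R62848_1 (adjusted p = 0.000647, edgeR). Foxl1, a transcription factor of the mesenchyme next to gut epithelium, was low, from 0.215 to 2.84 CPM (adjusted p = 0.0266, edgeR). Bmp4, a mesenchymal target in the gut, lay between 17.5 and 21.01 CPM in the R62848 and R63500 libraries, above all of the other 11 (6.53 to 16.1 CPM). It was the only one of the 16 tested targets with this arrangement, which 3.90% of all tested genes showed, and was named after its values had been seen. All 10 fibroblast genes were also highest in R62848 or R63500, and their part in the target levels was not tested.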

How the data were processed

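RNA from 17 mouse bile duct samples was sequenced. The deposited table holds, per the file headers, a read count per library and a gene length for each gene. Per the submitters' processing notes, STAR 2.6.1c, featureCounts, edgeR 3.40.2 and the mm10 build were used; the annotation release and strand setting were not stated. Another 17 columns of per-sample values in the table were not used. The deposited counts are the authors' and were used as they stand.

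The 9 genes and all gene lists were chosen with earlier results of these data known. Counts were scaled by TMM over the genes passing filterByExpr (minimum count 10) to CPM, and divided by the table's length to RPKM; log2 CPM used a prior count of 2. Column names match no sample title, so columns were grouped only by their 6 codes. Differences between codes were tested with edgeR 4.0.16 (quasi-likelihood F test, 11 residual degrees of freedom, R 4.3.3), with Benjamini-Hochberg adjustment over 19412 genes and a threshold of 0.05. P-values measure the spread between libraries, which may be technical. Correlations with Gli1 used 15552 exact permutations within codes, two-sided, adjusted over 19411 genes. Besides the 9 genes, the text names in each pathway list the 3 most abundant genes by median RPKM and the 2 most variable by SD of log2 CPM, and the 5 genes most like Gli1 and Ihh; other names are marked as chosen after their values were seen. Some genes that this rule names are not reported here. Alternatives were DESeq2 1.42.0, its size factors, no filter, a prior count of 0.5, and leaving out each library or code. On simulated counts the test over codes recovered 86% of 100 genes changed 2-fold and 51% of 100 changed 1.5-fold. It made 13 false calls, with 18910 genes tested, the changed ones included. The changed genes all had higher mean counts than Dhh and Hhip, so this recovery does not extend to those genes. No other genes were changed, whereas 42.2% of all tested genes passed in the data. The adjustment was therefore stricter in the simulation, and its recovery is not that of the test on the data.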

Additional observations from a re-analysis of the deposited data

How the results depend on the processing

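The number of genes differing between codes was 8194, and ran from 7188 to 8531 when 1 library was left out and from 6731 to 8117 when 1 code was left out; DESeq2 gave 9529. Of the Hedgehog genes 4 passed, with 3 to 6 when 1 library was left out and 2 without code R63500. Gli2 passed in every alternative run, and Smo and Dhh in none. The median log2 CPM of Shh was -3.22 with a prior count of 2 and -5.22 with 0.5, because it is at 0 counts in most libraries. No gene passed the correlation with Gli1 in any of 25 alternatives. The permutations allow no p below 6.43e-05 even with all libraries, and leaving out a library or code leaves fewer permutations. These alternatives therefore cannot decide whether any gene moved with Gli1, and the lack of passing genes is not a sign of robustness. Leaving out 1 library moved r from -0.387 to 0.0311 for Dhh (positive without R62850_3), from -0.419 to 0.0690 for Hhip (positive without R62848_3) and from -0.0657 to 0.481 for Smo (negative without R62850_3). It also moved r from 0.0587 (without R62850_2) to 0.452 (without R63496_3) for Gli2 and from -0.627 (without R63496_1) to -0.220 (without R62848_2) for Gli3, with no change of sign. Leaving out 1 code moved r of Smo from -0.0219 to 0.428 (negative without R62850), and the cause was not tested. The planned use of the FPKM columns was not run. No paired analysis was possible because the columns could not be matched to samples and the labels give a single group. Shh, Dhh and Hhip are limited by their depth, with median counts of 0, 11 and 15.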
